A study of Mus musculus with 15 samples.

Results

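The colon of mice on 1 month of dietary restriction (DR) was compared with the colon of mice fed ad libitum (AL), using the 2 colon libraries that the labels give to these groups, of 15 libraries in the series. The study describes its colon tissue as intestinal mucosa, made up mostly of epithelial cells. Besides the colon, the series profiled the liver, the epididymal fat and 2 brain regions of the same male C57BL/6 mice, with 1 strand-specific RNA-Seq library, depleted of ribosomal RNA, for each tissue and diet. AL mice had free access to food and were 5 months old. DR mice received 40% less food than AL mice for 1 month, starting at 4 months of age, and were also 5 months old. Another colon library, DR-AL, came from mice restricted in the same way and then fed ad libitum for 2 months, so that they were 7 months old, and its values, given beside the other 2, are called those after refeeding. Where 3 levels of a gene stand together, they are those of AL, DR and DR-AL, in that order. Each library was made from pooled RNA of 5 mice, so the spread between mice cannot be measured, no difference below has a replicate check, and diet cannot be told apart from anything else that differed between the 2 pools.

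The lining of the colon is a single sheet of cells folded into crypts. Stem cells and dividing progenitors sit at the crypt base, and their daughters become absorptive colonocytes, mucus-secreting goblet cells, hormone-secreting enteroendocrine cells or chemosensory tuft cells as they move towards the surface. The colonocytes take up water, salt and the short-chain fatty acids made by bacteria, of which butyrate is their main fuel. Goblet cells, antimicrobial proteins and the lymphocytes and macrophages beneath the epithelium keep the bacteria of the lumen away from the tissue.

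On loci with a gene name, AL held 26554699 counts, DR 33422262 and DR-AL 25043727. Levels are given as CPM, that is, counts scaled to a total of 1000000 in each library. The colonocyte list summed to 57600 CPM in the AL colon and to between 60.05 and 1302 CPM in other tissues of AL mice, and the goblet list to 28420 CPM against 132.6 to 226 CPM. Per transcript length, the surface protein Lypd8 had the highest level among the named epithelial genes, at 13800 FPKM in AL. The small intestinal list summed to 2138 CPM in AL and 1419 in DR. Among its members, the enzyme lactase (Lct) was at 0 counts in AL and 1 count in DR. A gene was called changed when the Z test of the study's methods, which takes the only error to be that of counting reads, gave an adjusted value under 0.05 and the level was at least 25% higher or, in the other direction, lower by the same ratio. That rule compares 2 libraries and not 2 diets, and since it knows nothing of mouse-to-mouse spread it also calls small differences in abundant genes. It called 19.7% of the 18242 genes with a count in any colon library, 9.05% higher and 10.6% lower in DR, and the median log2 difference of all genes was 0.00. Counts of list members are to be read against these shares. Of the 10595 genes that averaged 100 counts or more, 23.9% were called, 12.5% higher and 11.4% lower in DR. Those shares apply to lists made up mostly of such genes, among them the absorptive colonocyte and glycolysis lists. Differences are DR minus AL on the log2 scale of CPM, and the ranges in brackets are exact 95% intervals that cover counting error only. The plot of differences against level shows where the main groups of genes lie.

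**Figure D1:**
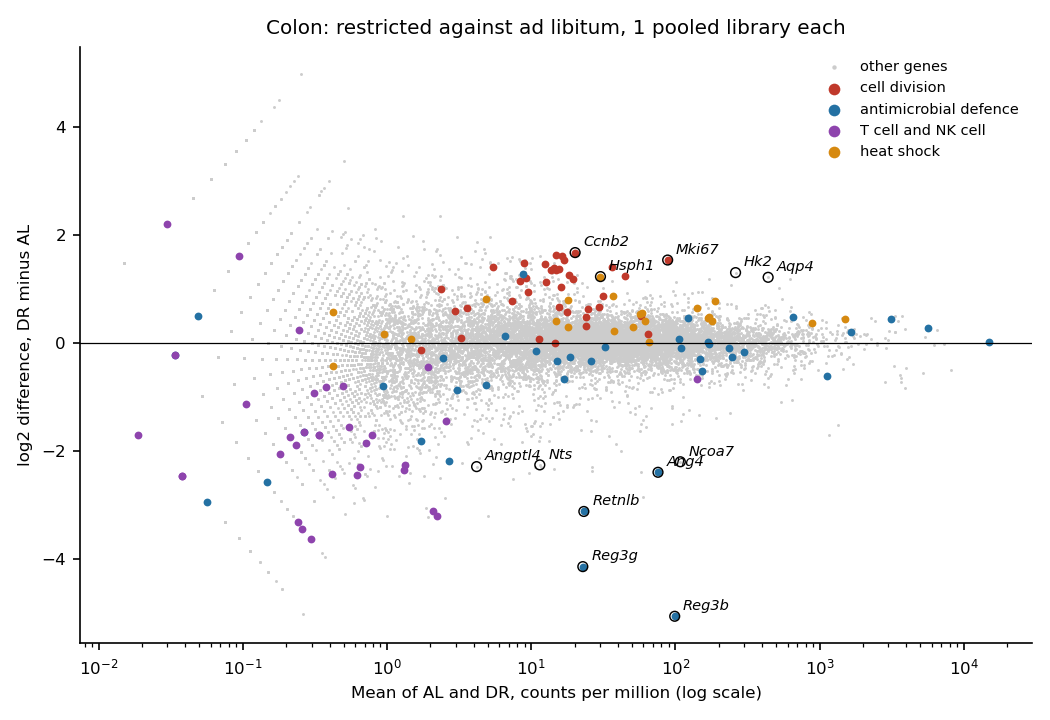
Each point is a gene, with its mean level in the AL and DR colon libraries in CPM on the x axis (log scale) and the log2 difference, DR minus AL, on the y axis; coloured points are members of 4 gene lists, ringed points are named, and genes at 0 in all 5 DR libraries are left out. Cell division genes lie above 0 with a median of 1.08, most T and NK cell genes lie below it at low levels, and Reg3b is the lowest of the named points at −5.07.

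Genes of the cell division list were higher in the DR colon. Of its 38 genes, 32 rose and none fell, where 9.05% of all genes rose, and the median log2 difference was 1.08. Ccnb2, a cyclin that drives entry into mitosis, was at 9.64 CPM in AL, 30.7 in DR and 7.75 after refeeding, a difference of 1.67 (1.47 to 1.88) between DR and AL. Cdk1, the kinase that such cyclins activate, was at 8.74, 25.2 and 8.43 CPM, a difference of 1.53 (1.32 to 1.74). Mki67, the antigen used to mark cycling cells, was at 45.4 CPM in AL, 132 in DR and 41.2 after refeeding, a difference of 1.53 (1.44 to 1.63). For all 3 genes the DR library stood above the other 2, which lay close to each other. The helicase subunits Mcm3 and Mcm5 differed by 1.13 (0.90 to 1.37) and 1.03 (0.83 to 1.23), while Pcna, the sliding clamp of DNA polymerase, was not called at 0.16 (0.06 to 0.25). The 10 largest rises among all called genes that averaged 100 counts or more were Cdca2, Kif18b, Sgol1, Esco2, Ccnb2, Ttk, Tpx2, Cenpf, Tacc3 and Parpbp, from 1.96 down to 1.59.

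The promoters of Ccnb2 and Cdk1 are shown because the cell division genes moved together and because such promoters often hold a pair of elements, the cell-cycle gene homology region (TTTGAA) and the CCAAT box. RefSeq windows of 300 bases on build GRCm38.p6, from 250 bases before the start of transcription to 50 after it, were searched on both strands. Capitals mark TTTGAA, or CCAAT and its reverse complement ATTGG. The Ccnb2 window is chr9:70421505-70421804 and the Cdk1 window chr10:69352863-69353162, both on the minus strand and both printed 5′ to 3′.
Ccnb2: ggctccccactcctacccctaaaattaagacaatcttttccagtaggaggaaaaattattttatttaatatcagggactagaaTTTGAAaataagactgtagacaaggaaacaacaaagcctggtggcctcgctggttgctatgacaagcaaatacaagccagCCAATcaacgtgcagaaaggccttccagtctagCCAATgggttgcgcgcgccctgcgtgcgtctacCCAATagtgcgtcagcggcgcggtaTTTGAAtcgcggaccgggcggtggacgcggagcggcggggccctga
Cdk1: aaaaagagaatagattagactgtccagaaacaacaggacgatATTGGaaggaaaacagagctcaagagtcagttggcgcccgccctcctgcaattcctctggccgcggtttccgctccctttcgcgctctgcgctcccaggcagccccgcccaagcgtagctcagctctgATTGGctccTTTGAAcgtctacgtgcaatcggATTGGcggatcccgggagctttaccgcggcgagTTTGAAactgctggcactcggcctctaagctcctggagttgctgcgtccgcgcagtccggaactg
Each window held 3 CCAAT boxes. The TTTGAA letters began 167 bases before the start and at base 5 of the transcript in Ccnb2, and 71 and 15 bases before the start in Cdk1. Of the 29 cell division genes with a window, 13 held TTTGAA and 23 held CCAAT, against 17.9% and 37.4% of all 32851 windows. A gene counted if any of its windows matched, whereas the shares are over single windows, so the measures are not alike. A match is a description of the letters and says nothing of what binds there.

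Stem cell and Wnt target genes were also more often called higher than lower. Of 27 genes, 12 rose and 3 fell, with a median of 0.28. The list's summed level was lower, however, at 1560 CPM in AL, 1462 in DR and 1332 after refeeding, and at a 2-fold limit none of its genes rose and 1, Msi1, fell. On the scale of FPKM with a pseudocount of 1 the median was 0.08. Ascl2, a transcription factor of crypt stem cells, was at 3.24 CPM in AL, 6.28 in DR and 5.55 after refeeding, a difference of 0.95 (0.59 to 1.33). Smoc2, another stem cell marker, was at 12.5, 19.4 and 17.9 CPM, a difference of 0.64 (0.45 to 0.84). The Wnt targets Axin2 (0.37), Myc (0.42) and Sox9 (0.43) rose by less. Lgr5, the receptor that defines crypt stem cells, was at 4.67, 4.94 and 5.03 CPM and was not called, with an interval for its difference of −0.26 to 0.43. Called lower were Msi1, Cd44 and Prom1, the last 2 at −0.57 and −0.49. When a spread beyond counting error was allowed for by edgeR's exact test, at a coefficient of variation of 0.164 estimated over the 3 colon pools without regard to diet, 1.3% of all genes were called; 15 of the 38 cell division genes were among them, all higher, and none of the stem cell genes.

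Lists of the differentiated absorptive and goblet cells had medians near 0, while single transporters and hormones moved. Of 29 absorptive colonocyte genes, 3 rose and 8 fell, with a median of 0.01. Lypd8 stood at 14870 CPM in AL and 14940 in DR. The keratin Krt19 rose by 0.50 (0.48 to 0.51) and the chloride exchanger Slc26a3 by 0.40 (0.38 to 0.41). Slc51a, a subunit of the basolateral bile acid and steroid exporter, was at 66.8 CPM in AL, 16.7 in DR and 29.4 after refeeding, a difference of −2.00 (−2.14 to −1.86). Its partner Slc51b fell by 0.86. Car1, an abundant carbonic anhydrase of colonocytes, was at 6160 CPM in AL, 4203 in DR and 3535 after refeeding, a difference of −0.55 (−0.56 to −0.54). Both DR and DR-AL lay below AL for these exporter and anhydrase genes.

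Among 32 genes of ion and water transport, 9 rose and 8 fell, with a median of 0.11. Aqp4, a basolateral water channel, was at 265 CPM in AL, 615 in DR and 248 after refeeding, a difference of 1.21, or 2.32-fold. The potassium channel subunit Kcne3 was at 91.5, 154.5 and 98.6 CPM, a difference of 0.76 (0.69 to 0.83). In both, DR stood above the other 2 libraries. Atp12a, the colonic proton-potassium pump, was at 488 CPM in AL, 776 in DR and 1808 after refeeding, so that it was highest in the refed library. The epithelial sodium channel went the other way. Its β subunit Scnn1b was at 23.2 CPM in AL, 11.6 in DR and 33.6 after refeeding, a difference of −0.99 (−1.18 to −0.81), and its γ subunit Scnn1g differed by −0.58 (−0.78 to −0.38), whereas the α subunit Scnn1a was not called at 0.24. Car12, a membrane carbonic anhydrase, fell by 1.27 and was also lower in DR-AL. With FPKM in place of CPM, 5 of the transport genes rose and 7 fell.

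The goblet cell and mucus list split evenly, with 5 of 28 genes called higher and 5 lower and a median of 0.04. The gel-forming mucin Muc2 was at 3583 CPM in AL, 4262 in DR and 5629 after refeeding and was not called in DR, at 0.25 (0.24 to 0.26). Tff3, the trefoil peptide secreted with mucus, was not called at 0.03, nor was the goblet cell protease that the table names Clca3, at −0.02. The disulfide isomerase Agr2, which helps mucins fold, rose by 0.53 and the transcription factor Creb3l1 by 0.73 (0.68 to 0.79). Gcnt3, a mucin glycosyltransferase, fell by 0.76. Of 28 cell junction genes, 1 rose and 4 fell, and none was called with edgeR's estimated spread. The claudin Cldn8 was at 46.9 CPM in AL, 86.3 in DR and 100 after refeeding, a difference of 0.88 (0.78 to 0.97), and Cldn4 fell by 0.70.

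Tuft cell genes were mostly lower in DR. Of 14 genes, 11 fell and 1 rose, with a median of −1.001, or −0.40 with FPKM and a pseudocount of 1. The taste-pathway channel Trpm5 was at 15.5 CPM in AL, 6.91 in DR and 13.3 after refeeding, a difference of −1.16 (−1.40 to −0.93). The kinase-like marker Dclk1 was at 16.5, 8.35 and 13.1 CPM, a difference of −0.98 (−1.20 to −0.76). Pou2f3, the transcription factor that tuft cells need, was at 2.48, 1.41 and 2.56 CPM, a difference of −0.81 (−1.39 to −0.26). In these 3 genes the refed value was closer to AL than to DR. The prostaglandin synthase Hpgds was the member that rose, by 0.47. In a bulk library, fewer cells of a type and less RNA in each cell cannot be told apart. With edgeR's estimated spread 2 of the 14 were called, among them Siglecf.

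Of 22 enteroendocrine genes, 4 fell and 2 rose. Nts, which encodes the gut and brain peptide neurotensin, was at 19.0 CPM in AL, 3.95 in DR and 6.23 after refeeding, a difference of −2.26 (−2.56 to −1.99). Sct, the gene of secretin, was at 15.6, 5.68 and 7.83 CPM, a difference of −1.46 (−1.71 to −1.21). Both hormones were lower in DR and in DR-AL than in AL, and both remained called with edgeR's estimated spread. In another set of mice under a longer restriction, the study reported higher colon expression of Nts, which it names Nts1, by real-time PCR. The mice, the duration and the assay differ from those here, so the values cannot be compared directly. Chga, a granule protein of most enteroendocrine cells, fell by 0.48. Peptide YY (Pyy), at 73.6, 77.6 and 75.8 CPM, was not called at 0.08 (−0.01 to 0.16), nor was proglucagon (Gcg), at −0.20 (−0.32 to −0.08). The substance P gene Tac1 rose by 0.73 and the endocrine progenitor factor Neurog3 by 0.79, the latter on 27 and 59 counts.

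**Figure D2:**
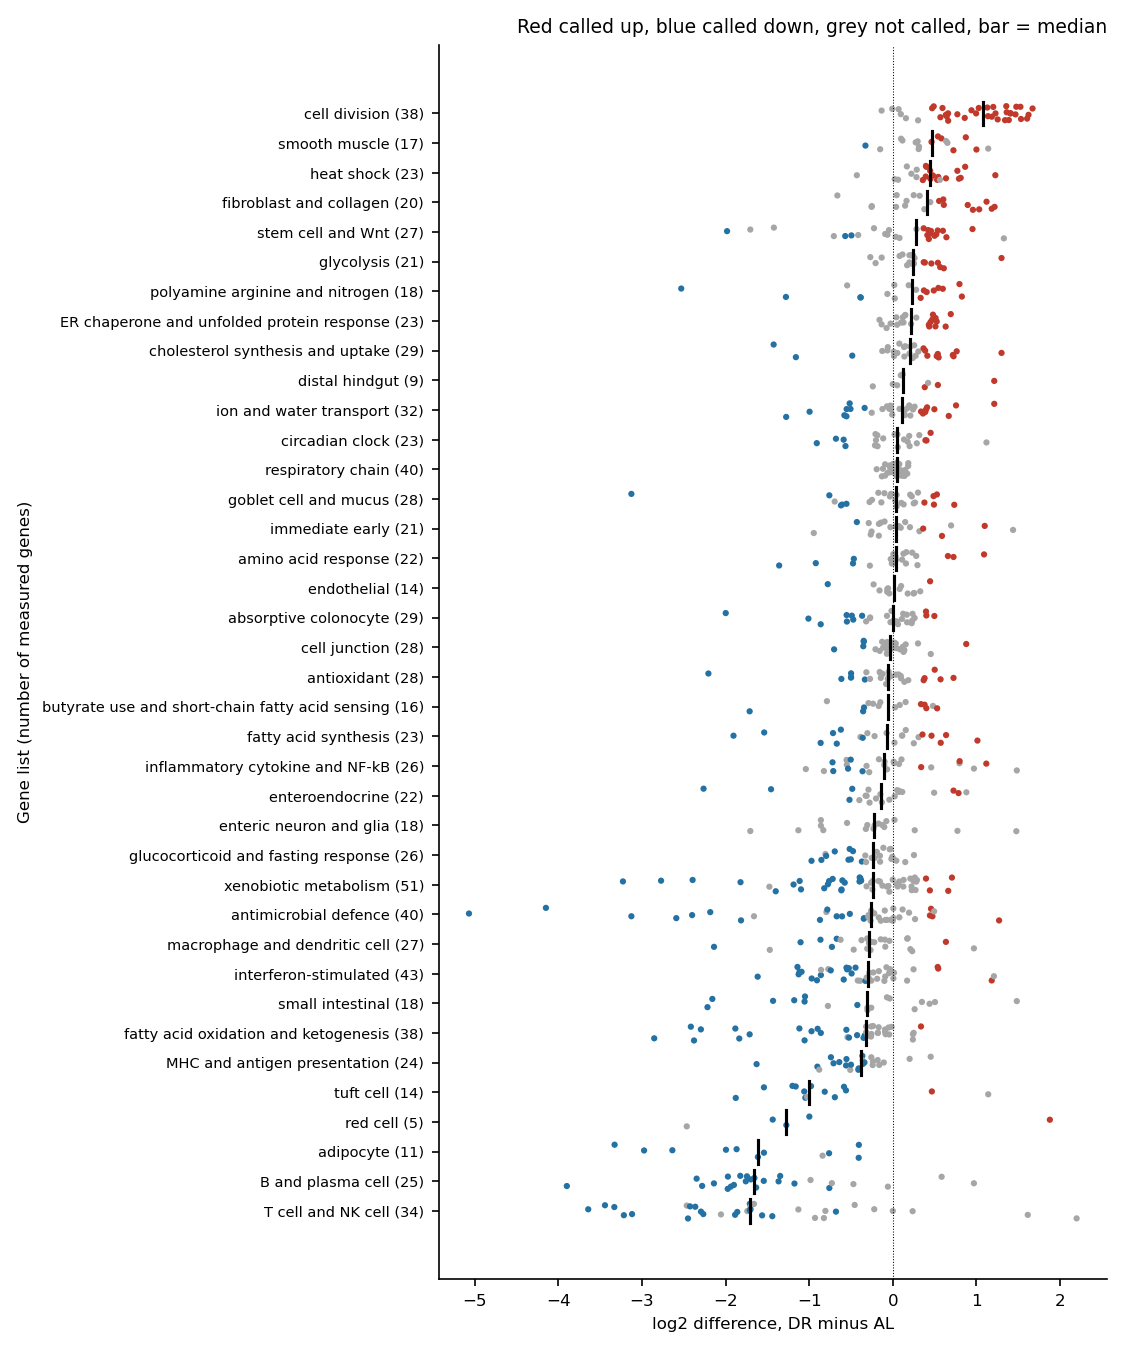
Each point is a gene and each row a gene list with its number of measured genes; the x axis is the log2 difference, DR minus AL, red points were called higher, blue points called lower and grey points not called, and the black bar is the list's median. Cell division has the highest median, 1.08, the T and NK cell, B cell and adipocyte lists the lowest, −1.71, −1.66 and −1.61, and the respiratory chain list has no called gene.

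Genes of antimicrobial proteins included the largest falls. Of 40 defence genes, 15 fell and 4 rose, with a median of −0.26, or −0.13 with FPKM and a pseudocount of 1, and at a 2-fold limit 8 fell and 1 rose. Their summed level was 28510 CPM in AL, 30000 in DR and 30780 after refeeding, so that it did not fall. That limit was passed by 5.79% of all genes, 3.83% downwards and 1.97% upwards. Reg3b, a C-type lectin that binds bacteria, was at 192 CPM in AL, 5.71 in DR and 12.8 after refeeding, a difference of −5.07 (−5.29 to −4.86), so that the DR level was 2.97% of the AL level. Reg3g, a related lectin that kills Gram-positive bacteria, was at 43.2, 2.42 and 5.63 CPM, a difference of −4.15 (−4.50 to −3.83). Reg3b and Reg3g lie near each other on chromosome 6, at 78370657-78373466 and 78466269-78468872 of build GRCm38. Retnlb, a goblet cell protein that acts on bacteria and worms, was at 41.6, 4.76 and 12.6 CPM, a difference of −3.13 (−3.38 to −2.89). Ang4, an angiogenin with antibacterial action, was at 128 CPM in AL, 24.1 in DR and 43.3 after refeeding, a difference of −2.40 (−2.51 to −2.29). All 4 were lowest in DR, and DR-AL lay nearer to DR than to AL. Itln1, a lectin that binds microbial sugars, fell by 1.81, and Saa3, an acute-phase protein, by 2.18 on 117 and 32 counts.

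Other defence genes did not move this way. Pigr, the receptor that carries immunoglobulin A across the epithelium, was at 2650 CPM in AL, 3605 in DR and 3280 after refeeding and rose by 0.44 (0.43 to 0.46). Slpi, a protease inhibitor with antibacterial action, was at 5.16, 12.5 and 5.67 CPM, a difference of 1.27 (0.99 to 1.56). Il18, an epithelial cytokine, rose by 0.46. Saa1, at 1553, 1777 and 2538 CPM, and Zg16, a lectin of the mucus layer, at 5111, 6147 and 5999 CPM, were not called in DR. The oxidase Duox2 fell by 0.51 and Mptx1 by 0.61. With edgeR's estimated spread 7 of the 40 remained called, namely Reg3b, Reg3g, Retnlb, Ang4, Saa3, Itln1 and Slpi.

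**Figure D3:**
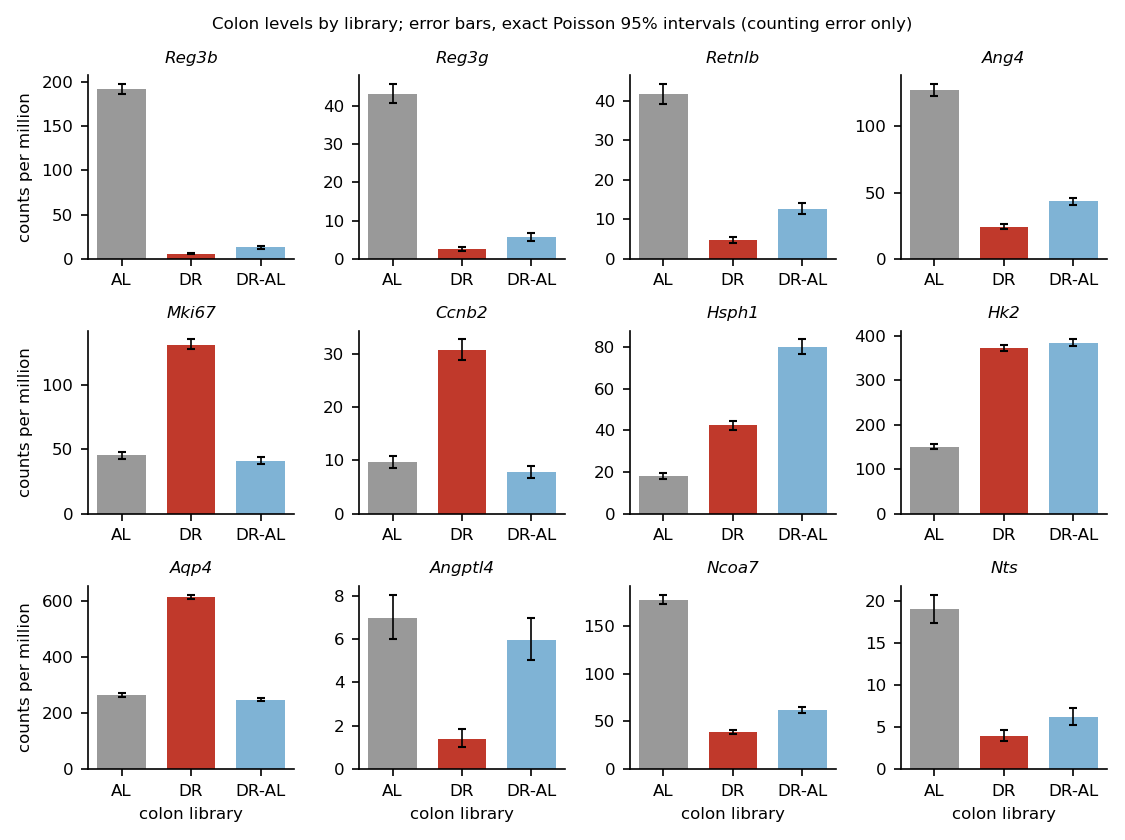
Levels of 12 named genes in the colon AL, DR and DR-AL libraries, in CPM on linear axes that start at 0; error bars are exact Poisson 95% intervals and cover counting error only. The 4 antimicrobial genes are highest in AL, Mki67, Ccnb2 and Aqp4 are highest in DR, and Hsph1 and Hk2 are higher in DR and in DR-AL than in AL.

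Lymphocyte genes were lower in the DR library than in AL. Of 25 B and plasma cell genes, 19 fell and none rose, with a median of −1.66; of 34 T and NK cell genes, 18 fell and none rose, with a median of −1.71. By comparison, 10.6% of all genes fell. The sizes of these medians depend on the pseudocount. With FPKM they were −1.26 and −0.96 at a pseudocount of 0.1, and −0.42 and −0.25 at a pseudocount of 1. These genes were at low levels, and a mean of at least 100 counts was reached by 2 of the B cell and 1 of the T and NK cell genes. The B cell list summed to 69.0 CPM in AL, 30.3 in DR and 93.1 after refeeding. Igj, the joining chain of secreted immunoglobulins, fell by 1.74, on 472 and 177 counts. Cd79a, a B cell receptor chain, had 68, 26 and 187 counts in AL, DR and DR-AL. Gzma, a granule protease of cytotoxic cells, had 100, 14 and 19 counts, a difference of −3.12 (−4.09 to −2.35), and the co-receptor chain Cd8a had 59, 14 and 41. Cd79a was thus highest in the refed library, and Gzma and Cd8a were highest in AL. Those 2 do not stand for their list after refeeding. In DR-AL, 11 T and NK cell genes were called higher than in AL and 2 lower, with a median difference of 0.215. The list summed to 204 CPM in AL, 116.6 in DR and 177.7 after refeeding. In the DR library Ctla4, Il17a, Cd5 and Prf1 were at 0 counts, against 0 to 2 in AL. With edgeR's estimated spread 7 B cell and 6 T and NK cell genes remained called.

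Of 27 macrophage and dendritic cell genes, 5 fell and 1 rose, with a median of −0.28, or −0.05 with FPKM and a pseudocount of 1. The list's summed level went the other way, from 206 CPM in AL to 261 in DR and 246 after refeeding, and none of its genes was called with either edgeR setting. The macrophage receptor Csf1r had 64, 66 and 121 counts in the AL, DR and DR-AL libraries and was not called in DR, at −0.28 (−0.81 to 0.23). Lysozyme 2 (Lyz2) fell by 0.67. The member that rose, Ly6c2, shares its locus with another gene, Ly6f. It was at 133 CPM in AL and 206 in DR, a difference of 0.64, and so made up most of the list's sum.

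Genes of antigen presentation and of the interferon response were on balance lower. Of 24 MHC and antigen presentation genes, 13 fell and none rose, with a median of −0.39. H2-T3, a non-classical class I molecule of the gut epithelium, was at 85.3 CPM in AL, 27.6 in DR and 40.5 after refeeding, a difference of −1.63 (−1.74 to −1.52), and was the only one of them called with edgeR's estimated spread. B2m, the light chain of class I molecules, fell by 0.34, and the class II chain H2-Ab1 by 0.50. Of 43 interferon-stimulated genes, 16 fell and 3 rose, with a median of −0.30. Irf7, the factor that amplifies the response, was at 233, 139 and 151 CPM, a difference of −0.74 (−0.80 to −0.69), and Ifit1, an RNA-binding effector, at 28.2, 12.8 and 11.7 CPM, a difference of −1.14 (−1.32 to −0.97). Bst2 was among those that rose, by 0.54. None of the 43 was called with edgeR's estimated spread. Of 26 cytokine and NF-kB genes, 5 fell and 3 rose, but at a 2-fold limit none fell and 1 rose, and none was called with edgeR's estimated spread. Bcl3, a nuclear regulator of NF-kB, was at 34.8, 60.6 and 40.3 CPM, a difference of 0.80 (0.69 to 0.91).

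Markers of tissues next to the epithelium also differed between the libraries. All but 1 of the 11 adipocyte genes were called lower, with a median of −1.61, or −0.47 with FPKM and a pseudocount of 1, and the list summed to 290 CPM in AL, 202 in DR and 266 after refeeding. Adipoq, the adipocyte hormone adiponectin, had 71, 22 and 64 counts, and Lep, the gene of leptin, had 4, 0 and 7. Of 17 smooth muscle genes, 6 rose and 1 fell, with a median of 0.46. The list summed to 210 CPM in AL, 233 in DR and 145 after refeeding. Acta2, the actin of smooth muscle, was at 12.5, 20.6 and 5.43 CPM, a difference of 0.72 (0.54 to 0.92). Of 20 fibroblast and collagen genes, 9 rose and none fell, with a median of 0.41, and the list summed to 76.9, 99.9 and 83.0 CPM. The collagen chain Col3a1 rose by 0.60 (0.39 to 0.82) and the matrix protein Postn by 1.03 (0.75 to 1.33). With FPKM and a pseudocount of 1 the medians of the smooth muscle and fibroblast lists were 0.22 and 0.13, and no gene of either was called with edgeR's estimated spread. None of the 18 enteric neuron and glia genes was called. The part that a different make-up of the dissected tissue has in the lymphocyte, tuft cell and antimicrobial values above was not tested.

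Genes of fatty acid oxidation and ketone body synthesis were lower in DR. Of 38 genes, 17 fell and 1 rose, with a median of −0.32. Ppara, the nuclear receptor that switches on this pathway, was at 58.5 CPM in AL, 31.3 in DR and 27.1 after refeeding, a difference of −0.90 (−1.01 to −0.79). Angptl4, an inhibitor of lipoprotein lipase, was at 6.97, 1.41 and 5.95 CPM, a difference of −2.29 (−2.80 to −1.84). The peroxisomal thiolase Acaa1b fell by 2.42, the transcription factor Creb3l3 by 1.88 and the pyruvate dehydrogenase kinase Pdk4 by 0.97. Cpt1a, which admits fatty acids to the mitochondrion, fell by 0.34, just past the fold limit. Angptl4, Creb3l3 and Pdk4 in DR-AL were nearer to AL, and Ppara and Acaa1b nearer to DR. With edgeR's estimated spread 6 of the 38 were called, among them Angptl4 and Creb3l3.

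Of 16 genes of butyrate use and short-chain fatty acid sensing, 4 rose and 3 fell, with a median of −0.06, and their summed level was 5110 CPM in AL, 3869 in DR and 4405 after refeeding. None rose and 1 fell with edgeR's estimated spread. The butyrate transporter Slc5a8 was at 347, 458 and 290 CPM, a difference of 0.40 (0.36 to 0.44), and the butyrate-activating enzyme Acsm3 rose by 0.53. The monocarboxylate transporter Slc16a1 was not called at 0.08 (0.05 to 0.12). None of the 40 respiratory chain genes was called, and they ranged from −0.19 to 0.18 with a median of 0.05.

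Of 21 glycolysis genes, 7 rose and none fell, with a median of 0.24. At a limit of 1.5-fold 2 of them rose. At a 2-fold limit, and also with edgeR's estimated spread, only Hk2 rose. Hk2, the hexokinase that commits glucose to glycolysis and is bound to mitochondria, was at 151 CPM in AL, 372 in DR and 384 after refeeding, a difference of 1.30, or 2.46-fold. Its relative Hk1 rose by 0.46 and the mutase Pgam1 by 0.37. The glucose transporter Slc2a1 was at 389, 323 and 369 CPM and was not called at −0.27 (−0.31 to −0.23).

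Of 29 genes of cholesterol synthesis and uptake, 10 rose and 3 fell, with a median of 0.21. Sqle, the epoxidase that commits squalene to sterols, was at 62.1 CPM in AL, 105 in DR and 55.1 after refeeding, a difference of 0.76 (0.68 to 0.85). The isomerase Idi1 was at 60.03, 99.36 and 47.04 CPM, a difference of 0.73 (0.64 to 0.81). In both genes the refed library was the lowest. The genes that fell include those that move cholesterol across membranes, Abca1 at −1.16 and Npc1l1 at −1.43. At a 2-fold limit 1 member rose and 2 fell.

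Of 23 fatty acid synthesis genes, 5 rose and 7 fell, leaving aside Scd1, and the median of all 23 was −0.07, or 0.03 with FPKM and a pseudocount of 0.1. Acly, which makes cytosolic acetyl-CoA, was at 205, 319 and 261 CPM, a difference of 0.64 (0.59 to 0.69), and Fasn, the fatty acid synthase, rose by 0.35. The desaturase Scd2, on a locus it shares with a microRNA gene, was at 346, 698 and 225 CPM, a difference of 1.01 (0.98 to 1.05). Me1, an NADPH-producing enzyme, fell by 1.54. The stearoyl-CoA desaturase Scd1 was listed at 1252 counts in AL, 0 in DR and 1255 after refeeding. Scd1 was listed at 0 in the DR libraries of all 5 tissues, although the AL libraries held 106055 counts in liver, 756056 in fat, 12276 in hypothalamus and 8533 in hippocampus. It was the only gene with at least 100 counts in colon AL and 0 in colon DR. The source of the zeros was not tested, and no direction is drawn from them. The calling rule counts it among the lower genes, which would make 8.

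Xenobiotic metabolism was lower on balance, with 21 of 51 genes called lower, 4 higher and a median of −0.24. The carboxylesterase Ces1g was at 97.4 CPM in AL, 18.5 in DR and 35.8 after refeeding, a difference of −2.39 (−2.52 to −2.27). The cytochrome P450 enzymes Cyp2c65 and Cyp2c55 were at 280, 106 and 129 CPM and at 4385, 2888 and 2297 CPM, differences of −1.40 (−1.46 to −1.34) and −0.60 (−0.61 to −0.59). The esterase Ces2a fell by 1.10. For all 4 the refed value was nearer to DR than to AL. Cyp2f2, a P450 of other substrates, rose by 0.71. Cyp3a44, another P450, was at 240 counts in AL, 32 in DR and 89 after refeeding, and Cyp4b1, a P450 of fatty acids and foreign compounds, at 105, 14.6 and 55.5 CPM. These 2 belong with Reg3b, Reg3g, Retnlb, Arg2, Acaa1b, Ang4 and Ces1g to the largest falls among genes that averaged 100 counts or more, from −5.07 to −2.39, Scd1 being left aside. Members of P450 and esterase families are similar in sequence, and reads shared between them could move from one to another in the counting.

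Of 18 genes of polyamine, arginine and nitrogen metabolism, 8 rose and 4 fell, with a median of 0.23. At a 2-fold limit, and also with edgeR's estimated spread, none rose and 2 fell, namely Arg2 and Nags. Polyamines are small cations that dividing cells need. Amd1, which supplies their aminopropyl groups, was at 88.2 CPM in AL, 156 in DR and 115 after refeeding, a difference of 0.83 (0.76 to 0.90). The spermidine synthase Srm rose by 0.80 and Odc1, the first enzyme of the path, by 0.41. Arg2, a mitochondrial arginase, was at 12.7, 2.18 and 8.82 CPM, a difference of −2.53 (−2.92 to −2.17).

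Heat shock genes were higher in DR. Of 23 genes, 15 rose and none fell, with a median of 0.45. Hsph1, a partner of the Hsp70 chaperones, was at 18.1 CPM in AL, 42.4 in DR and 80.0 after refeeding, a difference of 1.23 (1.08 to 1.38). The inducible Hsp70 gene Hspa1b was at 13.3, 22.9 and 41.5 CPM, a difference of 0.79 (0.61 to 0.98), and Hspa1a, its near-identical copy, at 3.50, 6.16 and 13.6 CPM. Reads from these copies may have been split between them. Hsp90aa1, the inducible Hsp90, was at 139, 237 and 309 CPM, a difference of 0.77 (0.72 to 0.83). All 4 were highest in the refed library. Endoplasmic reticulum chaperones moved the same way, with 10 of 23 called higher, none lower and a median of 0.22. Hspa5, the main chaperone of that compartment, rose by 0.69 (0.66 to 0.73). With edgeR's estimated spread Hsph1 was called and no other gene of these 2 lists.

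The promoters of Hsph1 and Hspa1b are shown because heat shock factor binds repeats of GAA and its complement TTC. Capitals mark GAANNTTC or TTCNNGAA, searched on both strands in the same kind of window. The Hsph1 window is chr5:149636287-149636586, the upstream of 2 that RefSeq's starts give, and the Hspa1b window is chr17:34959189-34959488, both on the minus strand of GRCm38.p6.
Hsph1: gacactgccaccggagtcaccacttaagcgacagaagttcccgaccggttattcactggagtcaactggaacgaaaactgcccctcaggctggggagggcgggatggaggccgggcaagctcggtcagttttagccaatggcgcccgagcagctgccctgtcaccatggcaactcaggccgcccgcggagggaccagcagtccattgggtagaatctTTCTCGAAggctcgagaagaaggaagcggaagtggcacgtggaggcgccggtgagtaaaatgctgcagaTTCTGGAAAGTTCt
Hspa1b: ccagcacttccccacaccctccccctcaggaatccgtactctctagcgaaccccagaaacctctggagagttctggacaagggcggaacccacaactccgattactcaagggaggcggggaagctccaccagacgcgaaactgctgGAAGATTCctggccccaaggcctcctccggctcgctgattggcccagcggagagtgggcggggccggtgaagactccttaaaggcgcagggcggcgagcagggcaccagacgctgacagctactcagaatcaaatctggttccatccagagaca
In Hsph1 a TTCNNGAA began 33 bases before the start and a further pair, overlapping each other, lay at bases 37 and 42 of the transcript. In Hspa1b a GAANNTTC began 104 bases before the start. Of the 18 heat shock genes with a window, 12 held either form, against 15.1% of all windows. Here too a gene counted if any of its windows matched, and the share is over single windows.

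Antioxidant genes were divided, with 5 of 28 higher and 6 lower. Ncoa7, a coregulator with a domain linked to resistance to oxidation, was at 178 CPM in AL, 38.6 in DR and 61.7 after refeeding, a difference of −2.21 (−2.29 to −2.12). The epithelial glutathione peroxidase Gpx2 rose by 0.57 and the quinone reductase Nqo1 fell by 0.61. The glucocorticoid and fasting list had 9 of 26 genes lower and none higher, with a median of −0.23; its classical marker Fkbp5 was not called, at −0.19 (−0.25 to −0.14). The amino acid response list had 3 of 22 higher and 4 lower. Phgdh and Psat1, enzymes of serine synthesis, rose by 1.09 and 0.66, on 71 to 199 counts. Of 21 immediate early genes, 3 rose and 1 fell. Of 23 clock genes, 3 rose and 4 fell. No gene of the glucocorticoid, amino acid response, immediate early or clock lists was called with edgeR's estimated spread, and at a limit of 1.5-fold 3 of the amino acid response genes rose and 2 fell. Dbp, an output gene of the clock, was at 74.7 CPM in AL, 97.9 in DR and 30.9 after refeeding, and Per3 at 57.1, 38.5 and 28.1.

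Genes that mark position along the gut differed as well. Of 18 small intestinal genes, 7 fell and none rose, with a median of −0.30. The ileal bile acid transporter Slc10a2 was at 132 CPM in AL, 58.4 in DR and 58.2 after refeeding, a difference of −1.18 (−1.26 to −1.10). Fabp2, the intestinal fatty acid binding protein, was at 867, 417 and 524 CPM, and sucrase-isomaltase (Sis) at 10.2, 2.27 and 4.83 CPM. Of 9 distal hindgut genes, 3 rose and none fell. They were Aqp4, Hoxb13 and Hoxa13, the last 2 being homeobox genes of the hindmost gut. Hoxb13 was at 315, 457 and 470 CPM, a difference of 0.54 (0.50 to 0.58), and Hoxa13 at 78.2, 102 and 82.1 CPM, a difference of 0.38 (0.30 to 0.46). With edgeR's estimated spread 3 of the 18 small intestinal genes were called, all lower, namely Sis, Alpi and Slc10a2. Of the 9 distal hindgut genes only Aqp4 was called, and Hoxb13 and Hoxa13 were not.

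The other Hox genes were looked at after these values had been seen, and so were chosen with them known. Hox genes are expressed along the body axis in the order of their paralogue numbers. The locus that joins Hoxb3, Hoxb4, Hoxb5 and Hoxb6 was at 43.6 CPM in AL, 8.89 in DR and 17.1 after refeeding, a difference of −2.29 (−2.48 to −2.11). Hoxb8 was at 9.79, 2.66 and 4.55 CPM and Hoxb7 at 8.62, 2.48 and 2.96 CPM, differences of −1.87 (−2.24 to −1.53) and −1.79 (−2.18 to −1.43). The locus of Hoxd3 and Hoxd4 fell by 2.22 and Hoxd8 by 1.83. Hoxb9, at −0.31, and Hoxd13, at 0.12, were not called, nor were the Hoxa loci below Hoxa13 that averaged 30 counts or more, whose differences lay between −0.43 and 0.23. The 5 loci that fell were also called with edgeR's estimated spread and were lower in DR-AL than in AL. Several transporters, esterases, antimicrobial genes and Car1 vary along the length of the colon, and the part that the stretch of colon taken from each group has in the values above was not tested.

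**Figure D4:**
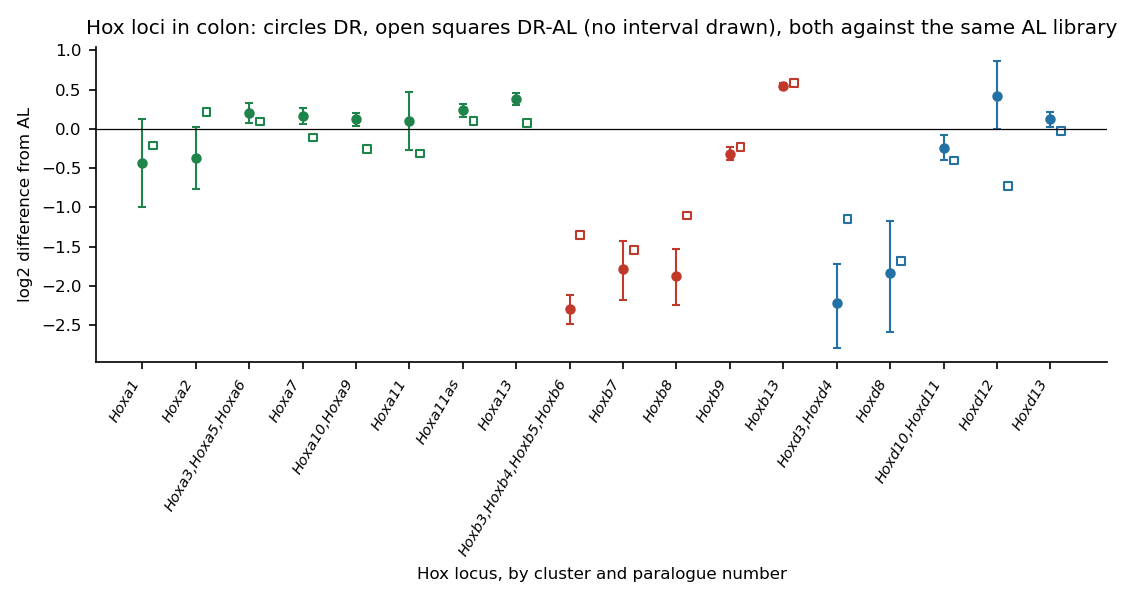
Hox loci that averaged 30 counts or more over AL and DR, ordered by cluster and paralogue number on the x axis, with the log2 difference from AL on the y axis; circles are DR minus AL with exact 95% counting intervals, open squares are DR-AL minus AL without intervals, and colour marks the cluster. Hoxb3 to Hoxb8, Hoxd3, Hoxd4 and Hoxd8 lie between −2.29 and −1.79 in DR, the Hoxa loci lie between −0.43 and 0.38 and Hoxb13 lies at 0.54.

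The refed colon library was set against the same AL library, so its differences from AL are not independent of those of DR, and its mice were older. The cell division list had a median of 1.08 in DR and of −0.15 in DR-AL, with 4 genes higher and 6 lower in DR-AL. Smooth muscle genes had medians of 0.46 and −0.61, and B cell genes of −1.66 and 0.80. The heat shock list had medians of 0.45 and 0.58. The 2 comparisons thus stood on the same side of 0 for heat shock and on opposite sides for the other 3 lists. For the antimicrobial list the medians were −0.26 and −0.11, for fatty acid oxidation −0.32 and −0.11 and for tuft cells −1.001 and −0.19. T and NK cell genes had medians of −1.71 and 0.215.

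**Figure D5:**
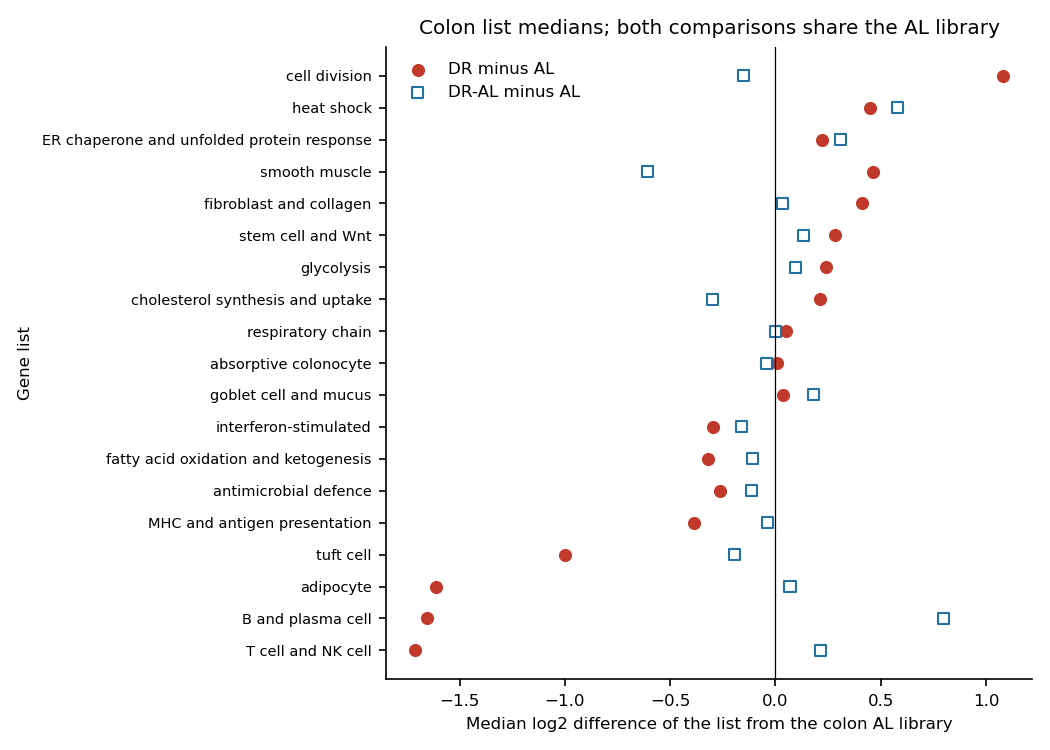
Median log2 difference of 19 gene lists from the colon AL library (x axis), with filled circles for DR and open squares for DR-AL; both share the AL library and no interval is drawn. Cell division lies at 1.08 in DR and −0.15 in DR-AL, heat shock at 0.45 and 0.58, and the B and plasma cell list at −1.66 and 0.80.

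Libraries of the other tissues came from pools of the same diets, and the medians of the same lists are given over the genes with at least 20 counts in AL and DR together. Cell division had medians of 0.08 in liver, 0.39 in fat, 0.06 in hypothalamus and −0.15 in hippocampus, all below the 1.08 of colon. Fatty acid oxidation had medians of −0.72 in liver and −0.38 in fat, beside −0.32 in colon, and of −0.08 and −0.11 in the 2 brain regions. Cholesterol synthesis and uptake had medians of 1.47 in liver and 0.48 in fat, beside 0.21 in colon. B cell genes had medians of −0.87 in liver and −0.50 in fat, beside −1.66 in colon. Whether the colon differs from these tissues was not tested, there being 1 library for each tissue and diet.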

How the data were processed

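RNA of 5 mice per group and tissue was pooled and sequenced as stranded libraries depleted of ribosomal RNA. The authors deposited a single table of 33603 loci with raw read counts and FPKM values for 15 libraries. The counts are whole numbers that the authors did not normalise, and the FPKM values, which the authors scaled to locus length and depth, were used here for levels between genes and as an alternative. The submitters' processing notes name mm9 and DESeq2, the study's methods name mm10, and of 21384 loci whose name is in GENCODE M21, 13.59% overlap that gene on GRCm38, so the table's own positions are not printed. Coordinates and promoters are those of GRCm38.

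The 23589 loci with a gene name were kept, and those with at least 1 count in the 3 colon libraries, 18242 in all, were tested. Where a symbol stood on several loci, the locus with the most counts was used. Counts were divided by the library total. The Z test compared square roots of the counts with a Poisson variance, and a call required a Benjamini-Hochberg adjusted value under 0.05 and a ratio of at least 1.25. Log2 differences of counts had 0.5 added to both counts after these were scaled to the mean total of the libraries compared. Log2 differences of FPKM had a pseudocount of 0.1 or 1 instead. Each 95% interval is the exact Clopper-Pearson interval of the ratio of the raw counts over their totals, with nothing added. The depth of 26554699 and 33422262 counts bounds counting error only. edgeR 4.0.16 supplied the exact tests, and Python 3.11.15 with numpy, scipy and pandas the rest. Scripts were tested on simulated data.

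The 38 gene lists held 957 symbols, found on 927 tested loci, and the Hox loci were added after values had been seen. The members and lists were chosen with earlier results of these data known. Named genes are list members, those with the largest differences and a mean of at least 100 counts first, the 10 called genes with the largest rises and falls at that level, and Hsph1, Ncoa7 and Nts. Some members of the lists are counted but not reported here by name. The libraries are single pools, so no test compares diets.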

Additional observations from a re-analysis of the deposited data

How the results depend on the processing

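The calls rest on counting error in 2 libraries, and the number of calls depends most on the spread allowed for. The Z test called 3587 genes, of which 46.0% were higher. With edgeR's exact test and an assumed coefficient of variation of 0.1, 777 were called, 306 higher and 471 lower, or 39.38% higher. With the coefficient of variation of 0.164 estimated from the 3 colon libraries, 237 were called, 70 higher and 167 lower, or 29.54% higher, and all of them were among the 3587. A fold limit of 1.5 left 1867 genes, 711 higher and 1156 lower, or 38.08% higher, and a limit of 2 left 1057, 359 higher and 698 lower, or 33.96% higher. The fold in FPKM gave 41.72% higher with a pseudocount of 0.1, and 1073 higher or 41.98% with a pseudocount of 1. Totals without the 10 most abundant genes gave 43.94% higher. Size factors in the manner of DESeq, TMM factors, either filter on low counts and thinning the DR library kept the counts within 1.5 times and moved the median of all genes by less than 0.1.

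More calls went one way than the other in 34 of the 38 lists. Under edgeR with the estimated spread 18 of the 34 kept that lean, 3 leaned the other way and others had equal or no calls; under the other alternatives 23 to 34 kept it. Lists with few or balanced calls changed lean, such as butyrate use, 4 higher and 3 lower, which had 0 and 1 at a 2-fold limit. Lists that leaned clearly to higher calls changed lean at that limit too, namely stem cell and Wnt, cholesterol, and polyamine. The polyamine list also did so under edgeR with the estimated spread. Of 35 genes followed, 30 kept the same result in the alternatives that were run for single genes. Those left out the stricter fold limits and the filters on low counts. The genes were chosen and not drawn at random, so this share does not extend to other genes. Hoxb13, Pigr and Slc26a3 lost their call with both edgeR settings, and Sqle and Dclk1 with the estimated spread. Slc26a3, at 0.27, also lost it with FPKM, and no gene changed sign. All 5 differed by less than 2-fold, so a 2-fold limit would have removed their calls too. An alternative chosen after seeing the data left out the genes at 0 in all 5 DR libraries, among them Scd1, and called 3583. No paired analysis was possible because each group holds 1 library, and for the same reason no replicate could be left out.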

Other observations

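Red cell and vessel markers were also read in the colon libraries. Of 5 red cell genes, 3 fell and 1 rose, and with edgeR's estimated spread none fell and 1 rose. Alpha-globin, on a locus that joins its copies Hba-a1 and Hba-a2, had 148, 93 and 97 counts in AL, DR and DR-AL. Of 14 endothelial genes, 1 rose and 1 fell. They were Pecam1, an adhesion molecule of vessels, at 0.45 (0.27 to 0.63), and Prox1, the lymphatic vessel factor, at −0.78.

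Some genes outside the lists stood near the largest differences and were chosen after their values had been seen. Osr2, a zinc-finger factor of the embryonic gut and kidney, was at 1179, 285 and 555 counts, a log2 difference of −2.38 (−2.57 to −2.19). Prap1, a proline-rich protein of the gut, was at 640, 159 and 206 counts, a difference of −2.34. The locus of Meg3, an imprinted non-coding RNA, with 2 microRNA genes, was at 98, 372 and 107 counts, a difference of 1.59 (1.27 to 1.93). Rfx2, a transcription factor of ciliated cells, was at 90, 339 and 376 counts, so that it was high in DR and in DR-AL. No replicate stands behind any of these values.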
